A study of Mus musculus with 4 samples.

Results

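The 139 microRNA loci described here are those that read at or above a low level on expression arrays of mouse quadriceps, apart from the striated-muscle microRNAs and the Mir23, Mir24 and Mir27 loci. They were chosen from probe sets that the array's annotation pairs with exactly 1 symbol beginning with Mir and a digit or with Mirlet7. The brightest probe set stood for each locus, and its mean over the 4 arrays had to be at or above 1.5 on the log2 scale. Of the 22180 genes with a probe set of their own, 483 were microRNA loci. The names Mir1a, Mir133, Mir206, Mir208, Mir499, Mir486, Mir23a, Mir23b, Mir24, Mir27a and Mir27b took out 12 of them, and 139 of the other 471 (29.5%) reached the level. Of the 139, Mir99ahg and Mir100hg are long host transcripts and not hairpins.

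The tissue came from 2 NF90-NF45 dbTg mice, which carry transgenes for both proteins, and from 2 WT mice, with 1 array a mouse. Both dbTg mice were 16 weeks old. WT replicate 1 was 17 to 18 weeks old and WT replicate 2 was 16 weeks old. Replicate 1 was a male mouse and replicate 2 a female one in each group. The sources used here do not give the promoter of the transgenes, the strain or the number of founder lines. All values are RMA values on the log2 scale, and every difference is dbTg minus WT.

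A microRNA is cut from a hairpin within a longer primary transcript, first in the nucleus by Drosha with Dgcr8 and then in the cytoplasm by Dicer. The mature RNA pairs with messenger RNAs mainly through its seed, bases 2 to 8, so microRNAs with the same seed are grouped as a family. NF90 and NF45 form a complex that binds double-stranded RNA and that has been reported, in human cells, to bind primary microRNA transcripts and to hold back their cutting. The sources used here do not say whether the probes of a locus read the primary transcript, the hairpin or the mature RNA, and mature microRNAs were not measured separately.

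The hairpins of the 3 loci that differed between the groups are shown because the results below turn on them. They are RefSeq sequences on GRCm38.p6, 5′ to 3′, with the mature RNA in capitals.
Mir703: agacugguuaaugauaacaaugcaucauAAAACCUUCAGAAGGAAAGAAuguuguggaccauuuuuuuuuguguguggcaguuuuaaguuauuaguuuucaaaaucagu
Mir692-1: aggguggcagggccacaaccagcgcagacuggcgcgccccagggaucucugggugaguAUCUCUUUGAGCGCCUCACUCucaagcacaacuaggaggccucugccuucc
Mir1904: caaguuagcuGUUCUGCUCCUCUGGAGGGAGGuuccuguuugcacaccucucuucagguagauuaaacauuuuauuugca

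Mir703 lies at chr5:98475556-98475664 on the minus strand, with no RefSeq gene around it on that strand. Mir692-1 lies at chr17:6895229-6895337 on the minus strand, also with no host gene. Mir1904 lies at chr13:109903809-109903888 on the plus strand, within Pde4d, the gene of a phosphodiesterase that breaks down cyclic AMP. The mature RNA of Mir692-1 is identical to that of Mir692-2 and Mir692-3.

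Mature sequences of some of the loci that share a seed are shown next, with the seed in capitals, since those loci are compared further on. Those of miR-511, miR-1938 and miR-3109 are added because their host genes differed between the groups.
miR-103-3p: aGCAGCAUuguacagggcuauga
miR-107-3p: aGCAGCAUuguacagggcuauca
miR-15a-5p: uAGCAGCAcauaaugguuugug
miR-16-5p: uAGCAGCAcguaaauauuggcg
miR-99a-5p: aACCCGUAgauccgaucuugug
miR-99b-5p: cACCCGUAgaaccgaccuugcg
miR-181a-5p: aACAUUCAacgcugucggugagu
miR-181b-5p: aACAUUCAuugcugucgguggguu
miR-181c-5p: aACAUUCAaccugucggugagu
miR-181d-5p: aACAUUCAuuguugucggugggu
let-7a-5p: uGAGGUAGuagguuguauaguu
let-7b-5p: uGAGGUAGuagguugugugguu
let-7d-5p: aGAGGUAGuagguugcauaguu
miR-680: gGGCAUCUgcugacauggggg
miR-511-3p: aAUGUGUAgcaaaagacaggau
miR-1938: cGGUGGGAcuuguaguucgguc
miR-3109-3p: uAGGGCCAucucauccagaua

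In dbTg muscle Mir703 and Mir692-1 rose and Mir1904 fell, and the other 136 loci did not pass the test. Mir703 read 7.24 and 7.01 on the dbTg arrays, against 5.66 and 5.94 on the WT arrays. Mir692-1 read 4.23 and 4.11 on the dbTg arrays, against 2.94 and 2.50 on the WT arrays. For both loci each dbTg array lay above each WT array, and in both sexes the dbTg mouse read higher. Mir1904 read 1.77 and 1.84 on the dbTg arrays, against 3.14 and 2.88 on the WT arrays, so each dbTg array lay below each WT array.

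Mir703 averaged 7.13 ± 0.16 in dbTg muscle and 5.80 ± 0.20 in WT muscle (SD, n = 2 each), which is 2.52-fold higher (log2 difference 1.33 with an SE of 0.18, limma adjusted p = 0.0233). Mir692-1 averaged 4.17 ± 0.09 in dbTg muscle and 2.72 ± 0.31 in WT muscle (SD, n = 2 each), which is 2.72-fold higher (log2 difference 1.44 with an SE of 0.24, limma adjusted p = 0.0397). Mir1904 averaged 1.81 ± 0.05 in dbTg muscle and 3.01 ± 0.19 in WT muscle (SD, n = 2 each), which is 2.31-fold lower (log2 difference -1.21 with an SE of 0.22, limma adjusted p = 0.0463). The 95% intervals were 0.91 to 1.76 for Mir703, 0.88 to 2.01 for Mir692-1 and -1.72 to -0.69 for Mir1904. Without either dbTg array only 4 of the 13308 genes passed the test and none was a locus, while the differences without dbTg replicate 1 were 1.21 for Mir703, 1.38 for Mir692-1 and -1.17 for Mir1904 (limma adjusted p = 0.205, 0.261 and 0.283). Without dbTg replicate 2 they were 1.446, 1.505 and -1.24 in the same order (limma adjusted p = 0.217, 0.320 and 0.359). Quantile normalization ended the calls of Mir692-1 and Mir1904 (limma adjusted p = 0.0898 and 0.0589), and so did leaving out the intensity filter (0.0517 and 0.0631). The replicate number as a block, shared by mice of the same sex, ended the calls of Mir703, Mir692-1 and Mir1904 (limma adjusted p = 0.0743, 0.0854 and 0.100).

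The share of loci called was close to that of all genes. Of the 139, 2.16% were called, and 2.21% of all 13308 tested genes were called (2.01% higher and 0.203% lower). At an unadjusted limma p under 0.05, 18 loci were higher and 9 lower (19.4% of the loci), where the share of all tested genes was 18.7% (14.0% higher and 4.64% lower). After quantile normalization that split was 13 higher and 10 lower for the loci, and 1264 higher and 1041 lower for all tested genes, where the deposited values gave 1866 and 617. The dbTg and WT arrays did not overlap for 46 loci that were higher in dbTg and for 19 that were lower (46.8%), and for 50.0% of all tested genes (33.7% higher and 16.3% lower). Of the loci, 4 were at least 2-fold higher and 3 at least 2-fold lower (5.04%, where 4.81% of all tested genes were 2-fold apart). The difference was positive for 88 loci and negative for 51. Its median was 0.09 over the loci and 0.09 over all tested genes, with quartiles of -0.18 and 0.43 over the loci. The calls of loci and of all genes also moved with the WT array used. These fits leave 1 WT array, so a gap between the WT arrays no longer enters them. Their calls are no support for a locus. Of all tested genes, 610 were called higher and 156 lower in the absence of WT replicate 1, against 593 and 142 when WT replicate 2 was dropped instead. Without WT replicate 1, 8 loci were called higher, of which Mir103-2, Mir107, Mir1956, Mir1963, Mir466h and Mir674 were not called with all 4 arrays. Without WT replicate 2, Mir15a was called higher and Mir188 lower in addition. The rule on the mean level admits a locus that is high in only 1 group, so these counts describe the loci that passed and support no statement about microRNA loci in general.

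**Figure D1:**
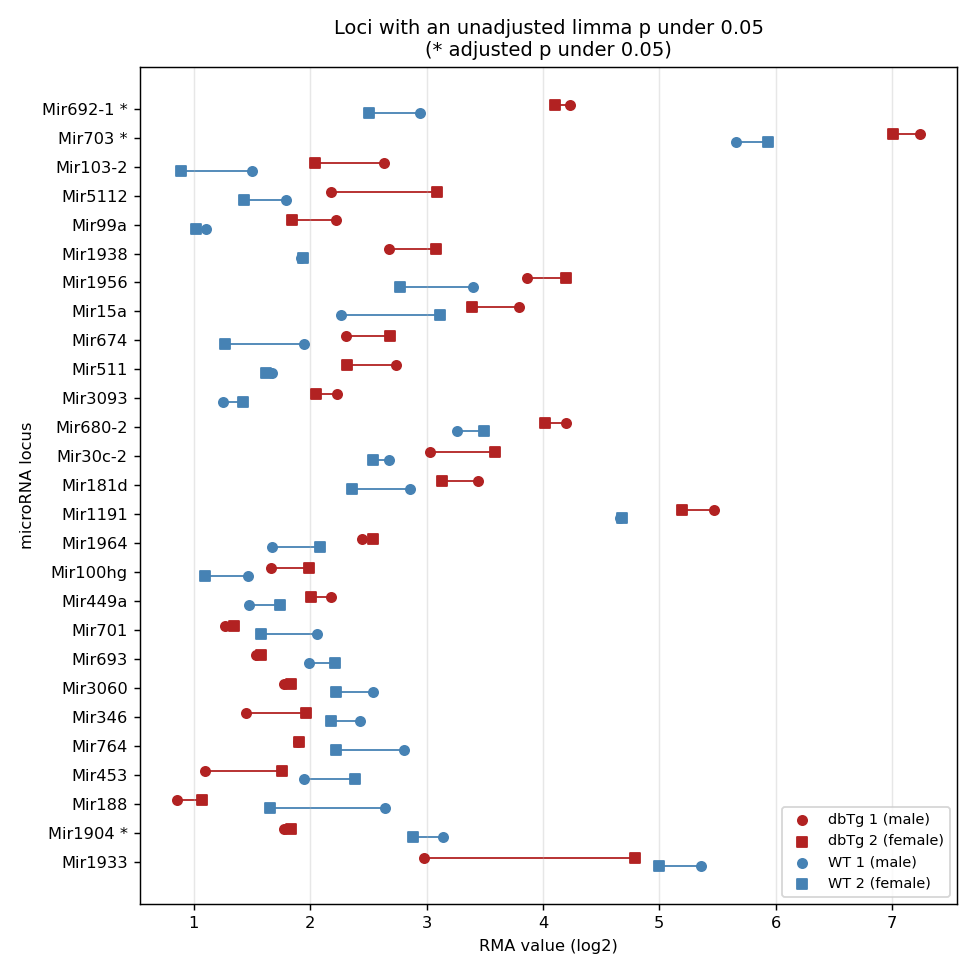
RMA values (log2, x axis) of the 27 loci with an unadjusted limma p under 0.05, 1 row a locus, with dbTg in red above WT in blue, circles for male and squares for female mice, and a line joining the arrays of a group. An asterisk marks Mir692-1, Mir703 and Mir1904, which passed the adjusted threshold, and in all 27 rows the groups do not overlap.

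The loci described next were chosen after their values were seen, and none of them passed. They were not taken strictly by their distance from the threshold. Among the loci that did not pass, Mir99a had the lowest adjusted p and Mir3093 the next lowest. Mir3093 had a log2 difference of 0.80 (SE 0.19, limma adjusted p = 0.0865), and its dbTg arrays both lay above both WT arrays. Mir99a, at chr16:77598936-77599000 on the plus strand, is a member of the family named for miR-100. It read 2.22 and 1.85 on the dbTg arrays, against 1.11 and 1.02 on the WT arrays (log2 difference 0.97, SE 0.20, limma adjusted p = 0.0635). Both dbTg arrays lay above both WT arrays, and the WT arrays lay below the level of 1.5. The transcript that holds it, Mir99ahg, read 3.10 and 3.26 on the dbTg arrays, against 2.44 and 2.93 on the WT arrays (log2 difference 0.49, limma adjusted p = 0.348). Mir99b, with the same seed as Mir99a, had a difference of 0.08 with a 95% interval of -0.38 to 0.54. Mir100hg, the transcript of the Mir100 region, had a difference of 0.55 (limma adjusted p = 0.243).

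Mir188, within the chloride transporter gene Clcn5 on chromosome X, read lower on each dbTg array than on each WT array. It read 0.86 and 1.07 on the dbTg arrays, against 2.65 and 1.65 on the WT arrays (log2 difference -1.18, SE 0.32, limma adjusted p = 0.118). Without WT replicate 2 the difference was -1.68, and without WT replicate 1 it was -0.69, each against 1 WT array. Mir1933, within Ugp2, had the lowest difference of all, at -1.29 (SE 0.53, limma adjusted p = 0.261). Its dbTg arrays read 2.98 and 4.79, against 5.36 and 4.996 on the WT arrays. The dbTg arrays were 1.81 apart, the widest gap within a group among all 139 loci, and the difference was -2.38 between the males and -0.21 between the females.

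Among the loci with a RefSeq mature sequence under their symbol, a seed was shared within 12 sets of 2 to 4 loci, 27 in all. No set had a member past the threshold. Loci without such a sequence, Mir449b among them, were not compared, so the sets can lack members. Mir103-2 and Mir107 share the seed of miR-103 and miR-107, which lie in pantothenate kinase genes. Pank1, the host of Mir107, read 3.66 and 3.64 on the dbTg arrays, against 3.13 and 4.41 on the WT arrays (log2 difference -0.12, limma adjusted p = 0.911). Pank2, the host of Mir103-2, had no probe set of its own. Mir103-1, which encodes the identical miR-103-3p, did not reach the level. It read 1.10 and 0.82 on the dbTg arrays, against 0.95 and 1.58 on the WT arrays. Mir103-2 read 2.63 and 2.04 on the dbTg arrays, against 1.498 and 0.89 on the WT arrays (log2 difference 1.14, SE 0.29, limma adjusted p = 0.102). Mir107 read 2.87 and 3.50 on the dbTg arrays, against 2.80 and 1.76 on the WT arrays (log2 difference 0.90, SE 0.39, limma adjusted p = 0.278). Both loci read higher on each dbTg array than on each WT array, as did 33.7% of all tested genes. The WT arrays of Mir103-2 lay below the level of 1.5, so it was admitted through its dbTg arrays. Without WT replicate 1, which leaves 1 WT array, the differences were 1.45 for Mir103-2 and 1.42 for Mir107. Without WT replicate 2 they were 0.84 for Mir103-2 and 0.38 for Mir107, and without dbTg replicate 2 that of Mir107 was 0.59.

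The seed of Mir15a and Mir16-2 is that of the miR-15 and miR-16 family, known to restrain cell cycle genes. Mir15a read 3.80 and 3.39 on the dbTg arrays, against 2.26 and 3.12 on the WT arrays (log2 difference 0.90, SE 0.33, limma adjusted p = 0.207). Mir16-2, from another chromosome, read 2.47 and 2.53 on the dbTg arrays, against 2.24 and 2.25 on the WT arrays (log2 difference 0.25, 95% interval -0.23 to 0.74). The groups did not overlap for either locus. Without WT replicate 2 the difference of Mir15a was 1.33, and without WT replicate 1 it was 0.48, each against 1 WT array.

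The miR-181 family, studied in lymphocyte and muscle cell differentiation, had 4 loci in 2 pairs of neighbours. Mir181c and Mir181d, neighbours on chromosome 8, had differences of 0.21 and 0.67. Mir181a-2 and Mir181b-2, neighbours on chromosome 2, had differences of -0.18 and 0.46. The 4 intervals ran together from -0.68 to 1.45, and only that of Mir181d, 0.05 to 1.30, did not include 0. Mir680-1 and Mir680-2 encode the identical mature RNA from different chromosomes, and their differences were -0.32 and 0.73 (limma adjusted p = 0.135 for Mir680-2).

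**Figure D2:**
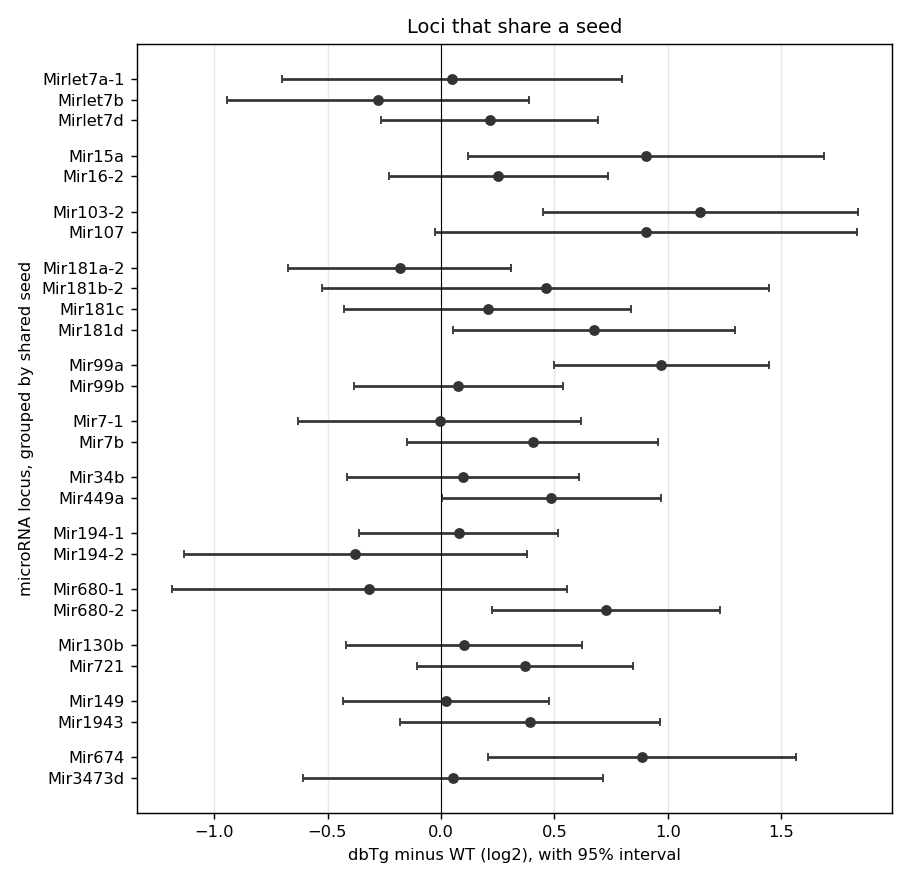
Difference between dbTg and WT (log2, x axis) of loci that share a seed, 1 row a locus. Only loci with a RefSeq mature sequence were compared. Rows are grouped by seed, with the point at the limma estimate and the bar at its 95% interval. Mir103-2, Mir15a, Mir99a, Mir181d, Mir449a, Mir680-2 and Mir674 have intervals above 0, and 0 loci of the plot passed the adjusted threshold.

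Mirlet7a-1 and Mir7-1, whose primary transcripts NF90-NF45 has been reported to bind, did not pass the test. Mirlet7a-1, a source of the let-7 microRNAs that restrain growth genes, read 2.28 and 3.005 on the dbTg arrays, against 2.35 and 2.84 on the WT arrays (log2 difference 0.05, 95% interval -0.70 to 0.80, limma adjusted p = 0.958). Mir7-1, within the splicing factor gene Hnrnpk, read 2.45 and 2.36 on the dbTg arrays, against 2.11 and 2.71 on the WT arrays (log2 difference -0.01, 95% interval -0.63 to 0.62, limma adjusted p = 0.995). In both the groups overlapped, and a difference of up to 0.80 on the log2 scale lies within the interval of Mirlet7a-1. Mir21a shared its probe set with Vmp1 and was not analysed here. Of the 11 let-7 loci on the array, 3 reached the level. Besides Mirlet7a-1 they were Mirlet7b, with a difference of -0.28 (95% interval -0.94 to 0.39), and Mirlet7d, with a difference of 0.21 (95% interval -0.26 to 0.69).

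Loci were also grouped by what their microRNAs are known for. The groups hold few loci and had 0 calls, where 2.21% of all tested genes were called. Of 4 vessel and smooth muscle loci, 2 reached the level: Mir143 with a difference of 0.10 and Mir145a with -0.32, whose dbTg arrays both lay below both WT arrays. Of 5 loci of stroma and matrix, 1 did, Mir199a-1, with a difference of 0.07. Of 11 loci listed for the miR-17 clusters and related microRNAs, linked to proliferation, 2 did. They were Mir106b with 0.23 and Mir92b, a related locus on chromosome 3 outside those clusters, with -0.37. Of 22 loci named for differentiation and growth, 6 did, with a median difference of 0.07 and a range of -0.18 to 0.46. Mir378b, of the miR-378 family linked to muscle metabolism, had a difference of -0.15 (95% interval -0.72 to 0.42).

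The region of imprinted microRNAs on chromosome 12, transcribed with Mirg and Rian from the maternal chromosome, was listed with 41 loci on the array, of which 10 reached the level, with a median difference of 0.07 and a range of -0.63 to 0.47. Mir453, which lies within Mirg and was not in the list, had a difference of -0.74 (limma adjusted p = 0.226). Mir329 read 2.83 and 3.20 on the dbTg arrays, against 2.72 and 2.37 on the WT arrays (log2 difference 0.47, limma adjusted p = 0.370). Mir758 had a difference of 0.40 (limma adjusted p = 0.314) and Mir540 one of -0.63 (limma adjusted p = 0.491). The groups overlapped for Mir540 and did not for Mir329 and Mir758. Of the 6 leukocyte loci on the array, Mir511 alone reached the level.

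Hosts were examined because a microRNA within a gene can share its primary transcript, and the host has a probe set that the choice of loci did not use. In all, 64 loci were found within 61 host genes on the same strand, and 47 of the hosts were tested. Strand was known for 113 loci, and the others could have no host here. The filter on names took Mir99ahg for a microRNA, so the counts leave out its pair with Mir99a. Of these, 3 rose in dbTg muscle (6.38%, where 2.01% of all tested genes rose) and 0 fell. They were Mrc1, Ifrd1 and Anxa2.

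Mrc1 encodes the mannose receptor of macrophages and holds Mir511. It read 5.91 and 5.70 on the dbTg arrays, against 4.33 and 3.62 on the WT arrays (log2 difference 1.83, SE 0.27, limma adjusted p = 0.0274). Mir511 read 2.74 and 2.31 on the dbTg arrays, against 1.68 and 1.62 on the WT arrays (log2 difference 0.88, SE 0.23, limma adjusted p = 0.104). Gene and microRNA locus were both higher on each dbTg array than on each WT array, and only the gene passed the test. Of the markers of macrophages and other leukocytes, 8 of the 16 tested rose and 0 fell, where 2.01% of all tested genes rose and 0.203% fell. The mean of the 20 markers on the array was 3.56 and 3.46 on the dbTg arrays, against 2.22 and 2.06 on the WT arrays. Cd3e, Cd8a, Ms4a1 and S100a8 lay under the filter of the fit. The part of these cells in the values of Mir511 and Mrc1 was not tested, and in whole muscle fewer or more cells of a type and less or more RNA per cell cannot be told apart.

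Ifrd1, an interferon-related regulator known from muscle regeneration, holds Mir1938. It read 6.09 and 6.47 on the dbTg arrays, against 5.08 and 5.30 on the WT arrays (log2 difference 1.09, SE 0.20, limma adjusted p = 0.0489). Mir1938 read 2.68 and 3.08 on the dbTg arrays, against 1.92 and 1.94 on the WT arrays (log2 difference 0.95, SE 0.23, limma adjusted p = 0.0925). Anxa2, a calcium-dependent membrane protein, holds Mir3109. It read 4.77 and 4.94 on the dbTg arrays, against 3.80 and 3.53 on the WT arrays (log2 difference 1.19, SE 0.21, limma adjusted p = 0.0437), while Mir3109 had a difference of -0.33 with overlapping groups. Without dbTg replicate 1 the differences were 1.72 for Mrc1, 1.28 for Ifrd1 and 1.28 for Anxa2, and without dbTg replicate 2 they were 1.94, 0.90 and 1.11, with no host among the 4 genes that passed there (limma adjusted p from 0.193 to 0.402 for the 3). Quantile normalization ended the 3 calls, with limma adjusted p of 0.0589 for Mrc1, 0.0940 for Ifrd1 and 0.103 for Anxa2.

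Other loci and hosts, chosen after their values were seen, lay on both sides of 0. Dleu2, the host of Mir15a, had a difference of 0.51 (limma adjusted p = 0.249), and Ugp2, the host of Mir1933, one of -0.64 (limma adjusted p = 0.116). Ryr1, the calcium release channel of muscle and host of Mir1963, had a difference of -0.88 (limma adjusted p = 0.0597), where Mir1963 had 0.90 (limma adjusted p = 0.313) with WT arrays of 2.33 and 0.95. Without WT replicate 1 the difference of Mir1963 was 1.59, and without WT replicate 2 it was 0.21, each against 1 WT array. Ryr1 passed with the filter at the 60th percentile (limma adjusted p = 0.0483). Clcn5 had a difference of 0.81, where Mir188 had -1.18. Xpo5, which carries microRNA precursors out of the nucleus, had a difference of 0.66 (limma adjusted p = 0.175), where Mir693 within it had -0.55. Pde4d, the host of Mir1904, had a difference of -0.61 (limma adjusted p = 0.302) and read 2.22 and 2.41 on the dbTg arrays, against 2.60 and 3.26 on the WT arrays. Over the 48 tested pairs of a locus and a host, Pearson's r between the differences was 0.13 and Spearman's rho 0.02. That is a description across loci that share the same 4 arrays.

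**Figure D3:**
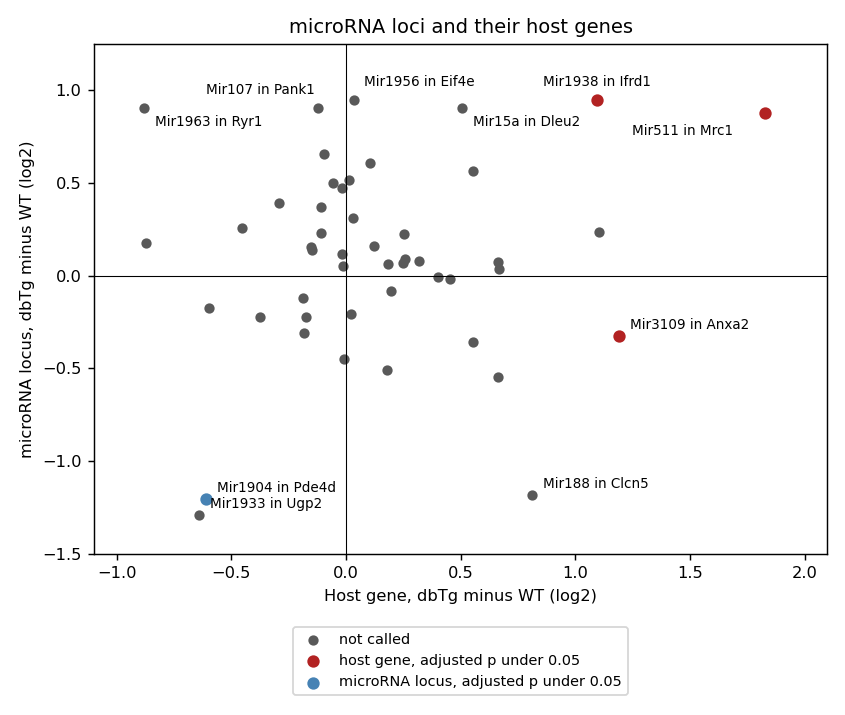
Difference between dbTg and WT of each host gene (x axis, log2) against that of the microRNA locus within it (y axis, log2), 1 point for each of the 48 tested pairs, with called hosts in red and a called locus in blue. Mir511 in Mrc1 and Mir1938 in Ifrd1 lie at the upper right, Mir188 in Clcn5 at the lower right and Mir1963 in Ryr1 at the upper left.

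Neighbouring loci are often cut from 1 transcript, so loci within 10 kb of each other were set side by side. Of the 139, 36 lay in 11 such groups, and 0 of the 36 were called, where 2.21% of all tested genes were. The largest family in 1 place was the cluster of miR-297, miR-466, miR-467 and miR-669 within the interval of Sfmbt2, an imprinted Polycomb gene, with strand not used to place it. Its 13 loci had a median difference of -0.0013 and a range of -0.37 to 0.66, with 6 positive and 7 negative. The cluster is known for near-identical copies, so the values of its single loci are uncertain. Mir466b-2 had 7 probe sets, of which 6 gave identical values on every array. A group of 7 loci on chromosome 12 had a median of 0.13 and a range of -0.74 to 0.47. Mir191 had a second probe set, whose difference was -0.30, against 0.56 for the brighter one.

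Of the 8 brightest loci, Mir703 was the fourth and alone passed the test. Mir5099 read 10.58 and 10.43 on the dbTg arrays, against 10.32 and 10.06 on the WT arrays (log2 difference 0.31, 95% interval -0.0038 to 0.62, limma adjusted p = 0.271). Mir449b read 8.97 and 8.93 on the dbTg arrays, against 8.92 and 8.47 on the WT arrays (log2 difference 0.25). Mir1195 had a difference of 0.10 and Mir669m-1 one of -0.02, and both groups of arrays overlapped for each. Mir761, within Nrd1, had a difference of 0.26, and Mir1954, within the endothelial receptor gene Eng, one of -0.23. Mir1191, within BC024978, read 5.47 and 5.19 on the dbTg arrays, against 4.67 and 4.68 on the WT arrays (log2 difference 0.66, limma adjusted p = 0.130). Probe sets differ in how strongly they bind, so these values give no order of abundance.

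Over the 139 loci the 4 arrays had medians of 2.23 and 2.21 in dbTg and 2.24 and 2.18 in WT. Over all tested genes the medians were 3.115 and 3.099 in dbTg and 2.872 and 2.847 in WT. Across the loci, which are not independent, Pearson's r was 0.948 between the dbTg arrays, 0.913 between the WT arrays and 0.894 to 0.918 between arrays of different groups. The arrays of a group were 1 or more apart on the log2 scale for 6 loci in dbTg and 12 in WT, the widest in WT being Mir187, at 1.62. The moderated SE had a median of 0.24, and the 95% interval a median width of 0.57 to each side. For 82 loci the interval lay within 1 on either side of 0, and for 57 it reached 1 or more, so differences of 2-fold remain within the interval for those.

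The mean over the 4 arrays, which the rule used, was at or above 4 for 12 loci and at or above 2 for 87, with a median of 2.14. Just inside the limit stood Mir487b at 1.5002, Mir143 at 1.52 and Mir5110 at 1.53, and just outside it Mir1952 at 1.49, Mir326 at 1.49 and Mir3085 at 1.47. The WT mean alone was at or above the limit for 131 of the 139 loci and the dbTg mean alone for 132. Of the called loci 1 had a mean at or above 4 (of 12 loci), 2 one of 2 to 4 (of 75) and 0 one under 2 (of 52). Of all tested genes, at any level, 2.21% were called. The median difference in those classes was 0.24, 0.16 and 0.02. The classes use the same mean as the rule and hold few calls, and a link between level and difference was not tested.

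**Figure D4:**
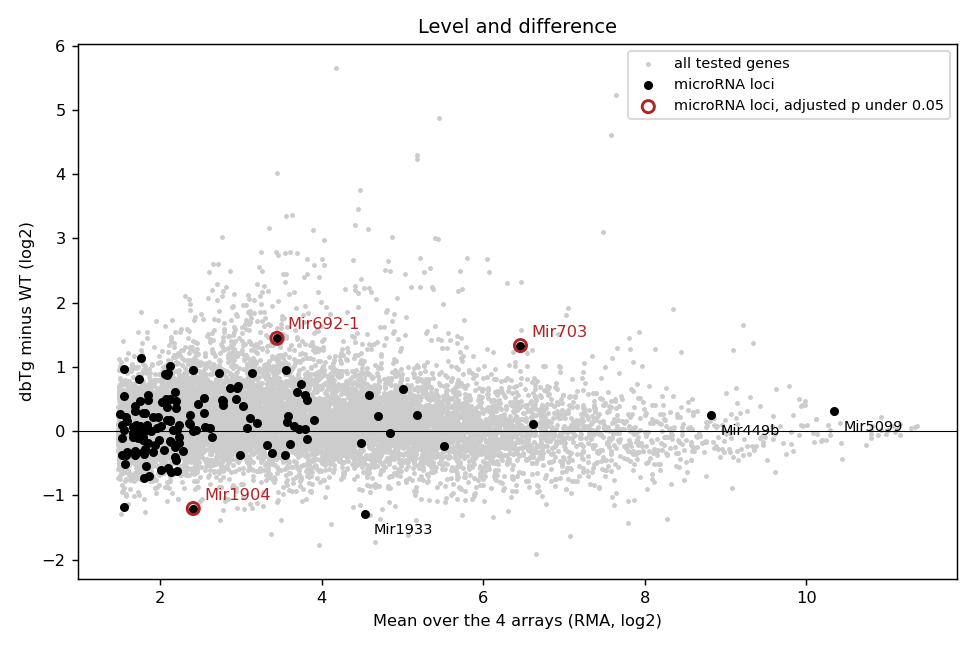
Mean over the 4 arrays (x axis, RMA, log2) against the difference between dbTg and WT (y axis, log2) for the 139 loci in black and all 13308 tested genes in grey, with red rings around the called loci. Mir703 and Mir692-1 lie above and Mir1904 below the other loci of similar level, at 1.33, 1.44 and -1.21.

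A property that the rule did not use moved with the level. Hairpins of the loci that reached the level had a median G and C content of 52.9% (101 with a RefSeq hairpin), where hairpins of the loci below it had 46.8% (291). The share of loci at the level was 13.1% (8 of 61) below 40% G and C, 17.9% (28 of 156) from 40 to 50%, 28.7% (37 of 129) from 50 to 60% and 60.9% (28 of 46) from 60%. Spearman's rho between G and C content and mean level was 0.42 over 392 loci. With the difference between the groups it was -0.07 over the 101 loci. These are descriptions across loci on the same 4 arrays. Probe sets differ in how strongly they bind, so the values say nothing on abundance, and the cause of the link was not tested.

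**Figure D5:**
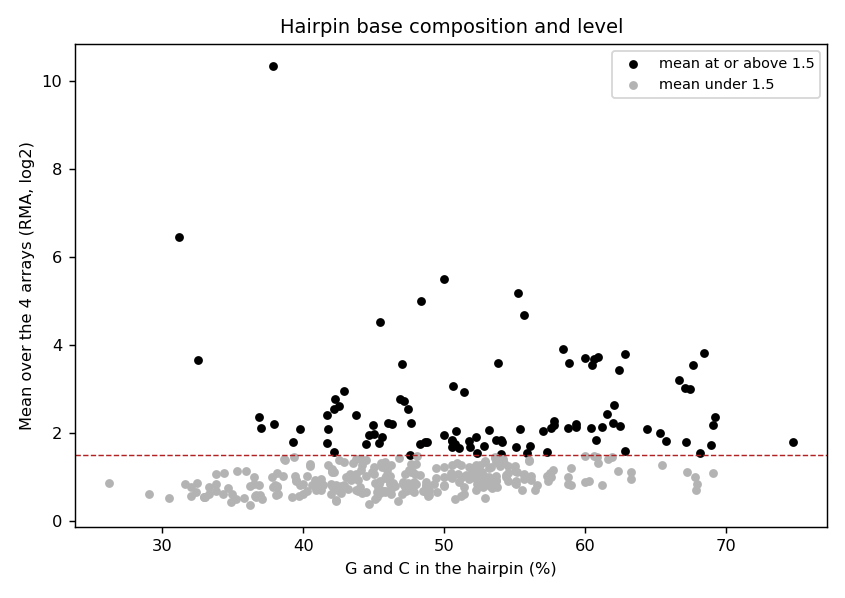
G and C content of the RefSeq hairpin (x axis, percent) against the mean over the 4 arrays (y axis, RMA, log2) for 392 loci, with a dashed line at the limit of 1.5. The share of loci above the line is 60.9% from 60% G and C upward and 13.1% below 40%. The values give no order of abundance.

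The left-out muscle and miR-23, miR-24 and miR-27 loci gave 5 calls of 8 tested in the same fit, all higher, with a median difference of 1.63. Of all tested genes 2.01% were called higher. The 8 are not independent, since they include Mir1a-1 and its host transcript Mir1a-1hg. A test between that list and the 139 loci was not made. The genes of microRNA processing gave 0 calls among 20 tested, where 2.21% of all tested genes were called, with a median difference of 0.01. The smallest p-values were those of Xpo5, described above, and of the helicase gene Ddx5, which had a difference of -0.43 (limma adjusted p = 0.198).

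Ilf2, which encodes NF45, checks the labels. It read 10.36 and 10.16 on the dbTg arrays, against 5.03 and 5.04 on the WT arrays (log2 difference 5.23, limma adjusted p = 7.17e-05). Markers of muscle fibres were high in every array, with means of 10.2 and 10.1 in dbTg and 10.1 and 10.2 in WT, and 0 of 9 called. Of the other marker lists, 1 of 7 fibroblast genes rose, with a median of 0.74, and 2 of 5 adipocyte genes, with a median of 1.31. In the lists of 10 endothelial genes, 8 smooth muscle genes and 1 red blood cell gene 0 were called, with medians of -0.50, -0.07 and -0.30. Of all tested genes 2.01% were called higher and 0.203% lower.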

How the data were processed

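The deposited values are RMA values on the log2 scale, which the authors made with Expression Console from Affymetrix, per the labels' descriptions. RMA subtracts background, equalises the arrays by quantile and combines each probe set's probes. The sources used here give no software version. Of 41345 probe sets, 23521 carried exactly 1 symbol, 1814 several and 16010 none. Symbols of 23328 matched RefSeq GRCm38.p6 by Entrez identifier, and 0 changed. The brightest probe set stood for a gene, and genes with a mean in the upper range, from the 40th percentile (1.48), were tested, 13308 in all. All 139 loci were tested.

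The test was limma's (version 3.58.1, R 4.3.3), fitted with lmFit and moderated by eBayes with a trend on intensity, with 2 residual and 4.76 prior degrees of freedom. The tests were two-sided and adjusted by Benjamini-Hochberg over all tested genes, with a threshold of 0.05. Intervals are at 95% from the same fit and SDs are over 2 arrays. The p-values rest on the spread between the 2 mice of a group, pooled over both groups. It is moderated toward the spread of genes of similar intensity. The 2 mice of a group differ in sex, and the number of arrays limits every value. The fit was also run on simulated data with independent genes and no array-wide shift or sex difference. That run gives no support to any call here.

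Hosts were RefSeq genes that hold the whole locus on the same strand, with strand known for 113 loci. Genes with names like those of microRNAs were not taken as hosts, and Mir99ahg was left out in this way. Sequences came from RefSeq, for 111 loci. Loci were named if called, among the 8 brightest, among up to 3 of a role list by p-value, next to the level limit, or as host of these. Other loci and hosts were chosen after their values were seen. The loci, role lists and marker lists were chosen with earlier results of these data known. Alternatives left out each array, used the replicate number as a block, and changed the scaling, the filter, the moderation, the probe set summary and the level limit.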

Additional observations from a re-analysis of the deposited data

How the results depend on the processing

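The counts of called loci were small and moved with several settings, which were applied one at a time. Leaving out 1 array, where the single array left is taken to vary like its counterparts, gave 0 to 8 higher loci, 0 to 2 lower loci and 0 to 4 called hosts. The 8 higher loci came without WT replicate 1, and 0 loci and 0 hosts came without either dbTg array. In these settings 4 to 610 of all tested genes were called higher and 0 to 156 lower, with 4 genes in all called without either dbTg array. With the replicate number as a block, 0 loci were called higher, 0 lower and 0 hosts, and the limma adjusted p was 0.0743 for Mir703, 0.0854 for Mir692-1, 0.100 for Mir1904 and 0.0515 for Mrc1. Of all tested genes 63 were called higher and 2 lower with the block, and 81 and 6 after quantile normalization. The numbers are shared by mice of the same sex and are not known to pair them. Quantile normalization moved the median difference of all genes to -0.03, against 0.09, and gave 1 higher locus, 0 lower loci and 0 hosts. It kept Mir703 (limma adjusted p = 0.0451), and the adjusted p was 0.0898 for Mir692-1 and 0.0589 for Mir1904. Without the intensity filter there was 1 higher locus, 0 lower loci and 1 host. With loci admitted from a mean of 1.0 and no filter there was 1 higher locus and 0 lower loci. Of 384 alternatives for the 33 loci and hosts that the naming rule took, 350 kept direction and side of the threshold, 17 kept direction but lost the call, 0 gained one and 17 changed sign. Other loci and hosts named in the text did gain calls, as given there.

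The changes of sign concerned 9 loci and 1 host that no setting called. Leaving out each array in turn, the differences ranged from -0.089 to 0.29 for Mir1195, from -0.0094 to 0.21 for Mir143, from -0.13 to 1.06 for Mir181b-2, from -0.097 to 0.24 for Mir199a-1, from -0.39 to 0.093 for Mir378b, from -0.15 to 0.10 for Mir669m-1, from -0.31 to 0.29 for Mir7-1, from -0.31 to 0.41 for Mirlet7a-1, from -0.66 to 0.10 for Mirlet7b and from -0.24 to 0.045 for BC024978. After quantile normalization that of Mirlet7a-1 was -0.16. The cause of these moves was not tested. No detection call came with the values used here, and 52 of the 139 loci had a mean under 2, so no background was set for them.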
